A study of Mus musculus with 6 samples.

Results

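The receptors described here were those through which oestrogens, progesterone, corticosteroids and prolactin reach the mouse prostate: Esr1, Esr2, Pgr, Nr3c1, Nr3c2, Gper1 and Prlr. They were chosen by gene symbol, and all 7 were found once each among the 34745 genes of the expression table. Every one of the 7 passed the filter on low counts and was among the 15580 genes tested. In the prostates of mice given testosterone and oestradiol, transcripts of Prlr, Esr1 and Pgr were higher than in control prostates, those of Esr2 and Nr3c2 were lower, and Nr3c1 and Gper1 did not pass the test. The values of Nr3c2 overlapped between the groups in 1 mouse of each, and the calls of Nr3c2 and Pgr were each lost in 4 of the 6 fits that left out 1 mouse. The Prlr and Esr2 differences were 2.61-fold upwards and 2.30-fold downwards.

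Esr1 and Esr2 encode the oestrogen receptors alpha and beta, Pgr the progesterone receptor, Nr3c1 the glucocorticoid receptor and Nr3c2 the mineralocorticoid receptor. These nuclear receptors are held by chaperones until a steroid binds, and then regulate genes as DNA-bound dimers together with coactivators or corepressors. Gper1 is a membrane receptor for oestrogen that signals through G proteins, and Prlr is a cytokine receptor that signals through the kinase Jak2 and the transcription factors Stat5a and Stat5b. In the rodent prostate, Esr1 is known mainly from the stroma, Esr2 and Prlr mainly from the epithelium.

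The study compared the prostates of 3 mice that carried subcutaneous slow-release pellets of testosterone and oestradiol (10 parts to 1; T + E2 group) with those of 3 mice that had no hormone (CON group, operated on without a pellet). All were male C57BL/6 mice aged 6 to 8 weeks at the start, the prostates were taken after 12 weeks, and no genetic change is named for either group. Each library came from a separate mouse, so the spread between libraries is that between mice. Whole tissue was sequenced, so fewer cells of a type and less RNA per cell cannot be told apart.

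Between 14816146 and 16555549 reads were counted on genes in each mouse, at which 3 counts correspond to 0.183 to 0.208 CPM (reads of a gene relative to the library total, scaled by TMM factors). The prostate identity of the libraries was checked on 6 luminal markers, which were present in every mouse. Their summed level was 15790 to 20522 CPM in the CON group and 3842 to 4481 CPM in the T + E2 group. The median log2 fold change of the 6 was -0.35, so the fall of the sum was not that of a typical marker. Pbsn (probasin, a luminal secretory protein), Cd24a and Krt18 were lower by edgeR's test, whereas Krt8 and Hoxb13 did not pass it. The 6 smooth muscle markers summed to 4041 to 4971 CPM against 3526 to 3853 CPM, with Acta2, Des and Lmod1 lower by the same test. The 6 fibroblast markers gave 1602 to 1730 CPM against 1675 to 2030 CPM, and 0 of them passed edgeR's test (0 at an unadjusted p under 0.05, 0 by DESeq2). The part of these shifts in the receptor results was not tested. The replicates numbered 2 stood apart in both groups, because 7 transcripts of the seminal vesicle, a gland that lies against the prostate, summed to 10322 CPM in CON 2 and 643 CPM in T + E2 2 but to no more than 4.11 CPM in the other 4 mice. The adipose markers also reached 644 CPM in CON 2, against 68.7 to 177 CPM in the rest. Results are therefore also given without both of these mice. In that fit 0 of the 6 smooth muscle markers passed, although 3 were lower at an unadjusted p under 0.05. There 2 of the luminal markers and 1 of the fibroblast markers were lower by edgeR's test.

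Of the 7 receptors, 5 passed edgeR's quasi-likelihood test at an adjusted p under 0.05, 3 upwards (Prlr, Esr1, Pgr) and 2 downwards (Esr2, Nr3c2). Over all tested genes, 19.6% passed, 10.4% upwards and 9.25% downwards. With the additional requirement of an absolute log2 fold change over 1, the threshold of the study for differentially expressed genes (DEGs), 3 of the 7 remained, Prlr, Esr2 and Nr3c2, against 7.64% of all tested genes. The CON and T + E2 values did not overlap for 4 of the 7, which was so for 40.7% of all tested genes. Without both replicates numbered 2, the count that passed was 3 (Prlr, Esr1 and Esr2), while over all genes 1354 passed in place of 3061.

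**Figure D1:**
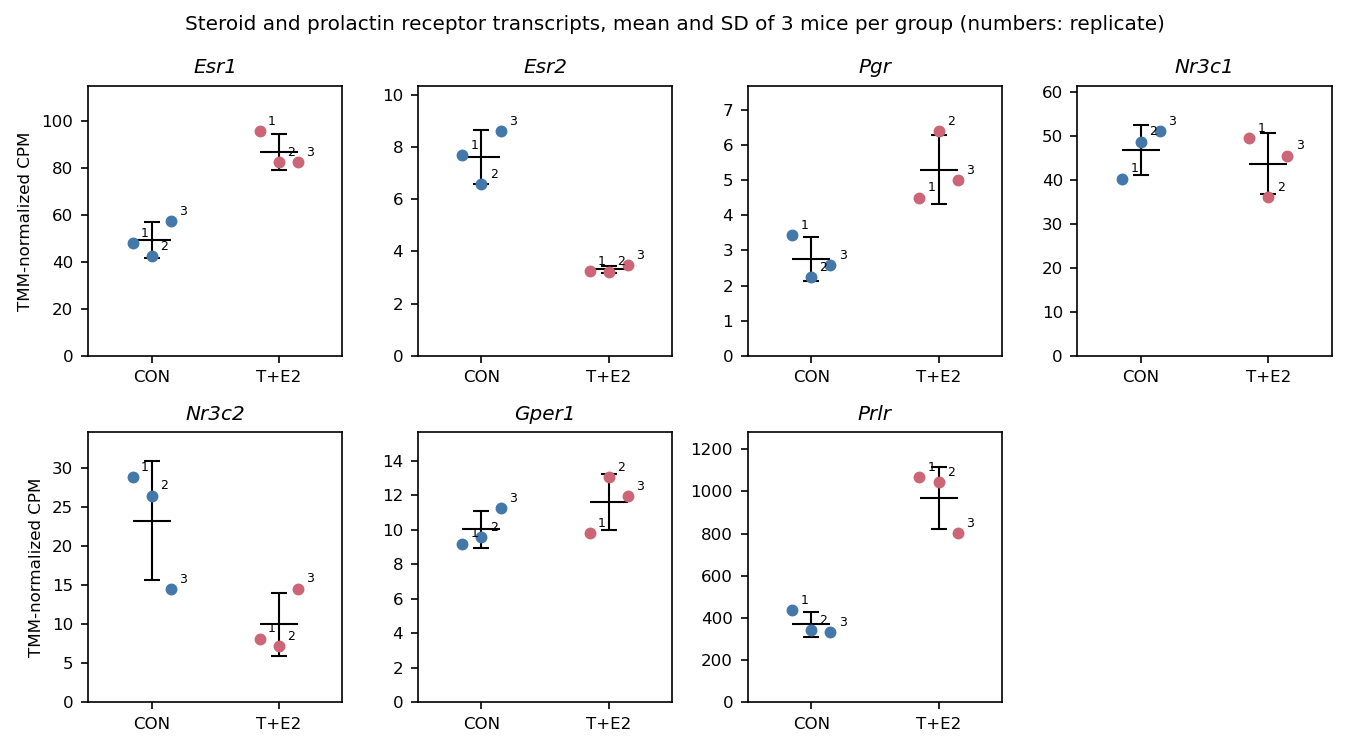
TMM-normalized CPM (vertical axis, from 0) of the 7 receptors in each mouse of the CON (blue) and T+E2 (red) groups, with the group mean and SD as horizontal line and bars (n = 3) and the replicate number beside each point. The groups separate for Esr1, Esr2, Pgr and Prlr, share the level of about 14.5 CPM for Nr3c2, and overlap for Nr3c1 and Gper1.

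The oestrogen receptors moved in opposite directions. Esr1 (ENSMUSG00000019768, GRCm38 chr10:4611593-5005614, plus strand) measured 48.0, 42.5 and 57.3 CPM in CON 1, 2 and 3, and 95.6, 82.4 and 82.2 CPM in T + E2 1, 2 and 3. All treated mice lay above all control mice. The group means were 49.2 ± 7.49 and 86.8 ± 7.66 CPM (SD, n = 3), which is 1.76-fold or 0.82 on the log2 scale (standard error 0.13, edgeR adjusted p = 0.0039). The log2 fold change was 0.76 (edgeR adjusted p = 0.0309) without both replicates numbered 2.

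Esr2 (ENSMUSG00000021055, GRCm38 chr12:76120419-76177259, minus strand) was the less abundant receptor. It had 116, 100 and 137 reads in CON 1, 2 and 3 and 47, 53 and 52 reads in T + E2 1, 2 and 3, or 7.68, 6.57 and 8.61 CPM against 3.25, 3.23 and 3.47 CPM. The treated mice were close to each other and all below the control mice. The log2 fold change was -1.20 (95% interval -1.62 to -0.78, edgeR adjusted p = 0.0033), and without both replicates numbered 2 it was -1.28 (adjusted p = 0.0276).

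Because the 2 genes moved apart, their ratio within a mouse shifted more than either alone. From the deposited FPKM (fragments scaled to gene length and library total), Esr1 stood at 1.74, 1.80 and 1.85 times Esr2 in CON 1, 2 and 3, and at 8.20, 7.12 and 6.61 times Esr2 in T + E2 1, 2 and 3. The difference of the log2 ratios was 2.02, a 4.05-fold shift, with an exact permutation p of 0.1 (two-sided), the smallest that 3 against 3 mice can give. Replacing the deposited gene length by the length of the merged exons lowered all 6 ratios, to between 1.54 and 7.25, and left the shift at 2.02. The difference was 2.03 without both replicates numbered 2.

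Esr1 and Esr2 are related in sequence, so a read of one could resemble the other. Their longest annotated coding sequences (GENCODE M21) matched at 67% of bases over the best-aligned 640 bases, and the longest run shared by both was 17 bases. The most alike stretch of 150 bases, within the part that encodes the DNA-binding domain, is shown because it is where the genes are hardest to tell apart. It lies at coding positions 604 to 753 of Esr1 and 541 to 690 of Esr2, 127 of the 150 bases are identical (84.7%), and the capitals mark the bases that differ.
Esr1: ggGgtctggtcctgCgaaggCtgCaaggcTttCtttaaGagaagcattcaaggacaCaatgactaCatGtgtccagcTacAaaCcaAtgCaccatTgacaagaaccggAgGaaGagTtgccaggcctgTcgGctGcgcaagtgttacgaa
Esr2: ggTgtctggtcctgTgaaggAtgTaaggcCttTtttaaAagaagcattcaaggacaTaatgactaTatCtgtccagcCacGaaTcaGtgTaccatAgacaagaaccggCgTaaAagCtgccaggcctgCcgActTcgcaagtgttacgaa
The differing bases are spread over the whole stretch, and no other gene's transcripts matched either coding sequence at 90% identity or more over 100 bases.

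Upstream sequence was taken from RefSeq (GRCm38.p6) as the 250 bases before an annotated start, on both strands of which 5 motifs were searched. These were the palindromic oestrogen response element GGTCANNNTGACC, present in 0.0639% of 32851 such windows over all genes, its single arm GGTCA (35.2%), the palindrome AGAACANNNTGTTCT of the glucocorticoid-type response element (0.00913%), its single arm AGAACA (16.1%), and the STAT motif TTCNNNGAA (7.02%). Each single arm is also contained in its palindrome, and a match is a description of letters and not of binding. Of the 7 receptors 6 were found among these windows, all but Nr3c1. None of the windows of Esr1, Esr2, Pgr, Nr3c2, Gper1 and Prlr held a palindrome of the steroid receptor type. The Esr2 window (chr12:76177260-76177509, minus strand) is shown because it belongs to the oestrogen receptor that fell and holds the single arm GGTCA, in capitals, with its first base at -238 and -75 from the start (the base before the start is -1).
Esr2 promoter: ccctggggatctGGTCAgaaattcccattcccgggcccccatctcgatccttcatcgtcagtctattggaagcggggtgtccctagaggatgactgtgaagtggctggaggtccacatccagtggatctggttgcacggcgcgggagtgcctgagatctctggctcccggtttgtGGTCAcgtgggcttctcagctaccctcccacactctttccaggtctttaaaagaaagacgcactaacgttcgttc
In Esr1, of the windows at 2 starts, the downstream one (chr10:4709908-4710157, plus strand) held the STAT motif, in capitals, at -188, and neither held GGTCA.
Esr1 promoter at the downstream start: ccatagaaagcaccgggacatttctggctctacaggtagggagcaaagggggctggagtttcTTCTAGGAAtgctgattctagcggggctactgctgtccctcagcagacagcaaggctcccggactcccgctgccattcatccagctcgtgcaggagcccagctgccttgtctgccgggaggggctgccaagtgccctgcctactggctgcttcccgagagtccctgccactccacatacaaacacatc

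Pgr (ENSMUSG00000031870, GRCm38 chr9:8899833-8968611, plus strand) is itself a classical target of oestrogen receptor alpha, and was the receptor with the lowest level per length (FPKM) in both groups. It had 52, 34 and 41 reads in CON 1, 2 and 3 and 65, 105 and 75 reads in T + E2 1, 2 and 3. In CPM these were 3.44, 2.23 and 2.58 against 4.50, 6.39 and 5.01, so that every treated mouse was above every control mouse, with CON 1 and T + E2 1 nearest to each other. The log2 fold change was 0.95 ± 0.25 (standard error, n = 3, edgeR adjusted p = 0.0316). This call depended on single mice: without CON 2, CON 3, T + E2 2 or T + E2 3 the edgeR adjusted p was 0.0958, 0.0972, 0.105 and 0.0609, with log2 fold changes of 0.79 to 0.98, and without both replicates numbered 2 the log2 fold change was 0.66 (adjusted p = 0.233). With the replicate number as a block, the adjusted p was 0.081. Its window upstream of the start held none of the 5 motifs.

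The receptors of corticosteroids differed from each other. Nr3c2 (ENSMUSG00000031618, GRCm38 chr8:76899442-77245012, plus strand) measured 28.7, 26.4 and 14.5 CPM in CON 1, 2 and 3 and 8.16, 7.18 and 14.5 CPM in T + E2 1, 2 and 3. CON 3 and T + E2 3 had the same level, while the other 2 mice of each group lay more than 3-fold apart. The log2 fold change was -1.22 (95% interval -1.97 to -0.47, edgeR adjusted p = 0.0349). It missed the threshold under edgeR's test without CON 1, CON 2, T + E2 1 or T + E2 2 (edgeR adjusted p = 0.0926, 0.088, 0.0976 and 0.115), with the replicate number as a block (0.0893) and without both replicates numbered 2 (log2 fold change -0.93, adjusted p = 0.217). The Nr3c2 window (chr8:76902080-76902329, plus strand) is shown because it holds the same single arm as that of Esr2, here as its reverse complement TGACC, in capitals, at -135 and -49.
Nr3c2 promoter: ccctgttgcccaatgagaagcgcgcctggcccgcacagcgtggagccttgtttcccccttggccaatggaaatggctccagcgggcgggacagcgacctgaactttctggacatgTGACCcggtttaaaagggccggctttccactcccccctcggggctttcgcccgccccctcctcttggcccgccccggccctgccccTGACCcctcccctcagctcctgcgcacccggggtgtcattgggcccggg
An antisense transcript, Gm10649, shares 247 exon bases with Nr3c2 and had no more than 1 read in any mouse.

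Nr3c1 (ENSMUSG00000024431) gave no difference between the groups that passed the test. Its levels were 40.3, 48.6 and 51.1 CPM in CON 1, 2 and 3 and 49.5, 36.0 and 45.4 CPM in T + E2 1, 2 and 3, and the values of the groups were interleaved. The log2 fold change was -0.10 with a 95% interval of -0.43 to 0.23 (edgeR adjusted p = 0.669). Its sign turned without T + E2 2, to 0.026.

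Gper1 (ENSMUSG00000053647, GRCm38 chr5:139423151-139427800, plus strand) also overlapped between the groups. Its levels were 9.21, 9.59 and 11.3 CPM in CON 1, 2 and 3 and 9.82, 13.0 and 11.9 CPM in T + E2 1, 2 and 3. The log2 fold change was 0.21, with a 95% interval of -0.15 to 0.57 (edgeR adjusted p = 0.374). Gper1 lies within 3110082I17Rik on the opposite strand, which had 123 to 161 reads in each mouse. Their exons do not overlap, and whether reads were counted by strand is not given in the sources used here.

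Prlr (ENSMUSG00000005268, GRCm38 chr15:10177238-10349180, plus strand) was the most abundant of the receptors, and its difference between the groups was the largest among those that rose. It measured 439, 341 and 333 CPM in CON 1, 2 and 3 and 1066, 1044 and 801 CPM in T + E2 1, 2 and 3. The lowest treated mouse stood well above the highest control mouse. The means were 371 ± 58.9 and 970 ± 147 CPM (SD, n = 3), a log2 fold change of 1.39 (95% interval 1.02 to 1.75, edgeR adjusted p = 0.000868). It was 1.27 (adjusted p = 0.0185) without both replicates numbered 2. Prlr shares 203 exon bases on its own strand with Gm21973, which had no more than 3 reads in any mouse. The coding sequence of Prlr matched a transcript of Gm21973 at 99.5% of 207 bases.

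RefSeq lists 3 starts for Prlr. The window at the second (chr15:10223656-10223905, plus strand) is shown because it holds the same 9 letters of the STAT motif as the downstream Esr1 window, at -110, and TGTTCT, the reverse complement of the single arm AGAACA, at -12, both in capitals. The windows at the other 2 starts held none of the 5 motifs, and neither did that of Gper1.
Prlr promoter at the second start: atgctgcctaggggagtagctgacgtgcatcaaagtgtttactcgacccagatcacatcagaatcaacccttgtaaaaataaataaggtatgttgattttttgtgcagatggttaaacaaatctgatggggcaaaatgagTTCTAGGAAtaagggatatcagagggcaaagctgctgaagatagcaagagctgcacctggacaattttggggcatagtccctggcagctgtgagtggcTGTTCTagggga

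**Figure D2:**
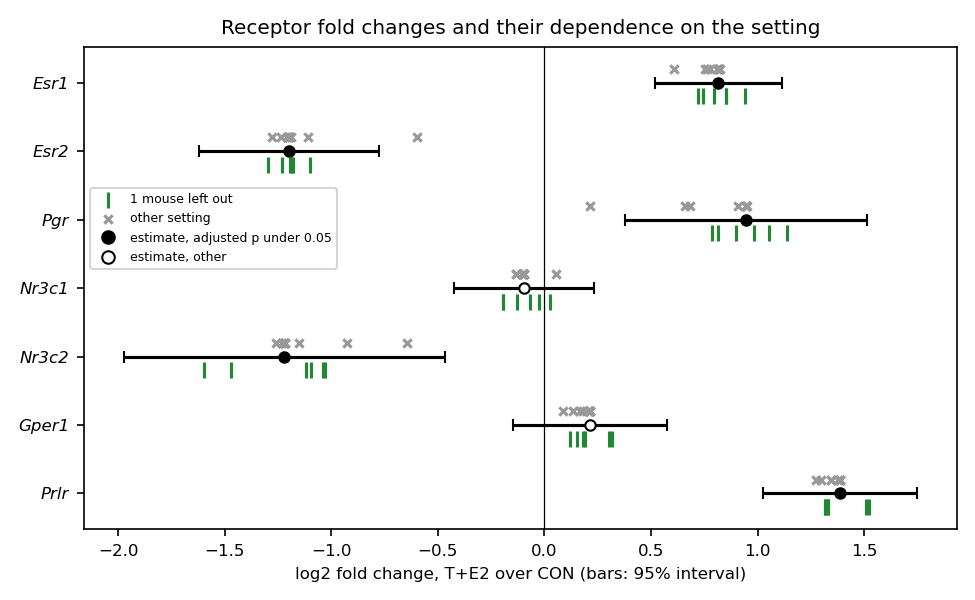
Log2 fold change of each receptor, T+E2 over CON (horizontal axis), with its 95% interval as a bar and the estimate as a point, filled where the adjusted p was under 0.05. Green ticks are estimates with 1 mouse left out and grey crosses those under another setting. The crosses for Esr2, Pgr and Nr3c2 that lie nearest to 0 are from log2(FPKM + 1). Only the ticks and crosses of Nr3c1 lie on both sides of 0.

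Esr1, Esr2 and Prlr passed the test under all 16 alternatives tried, including each mouse left out in turn. The log2 fold changes with 1 mouse left out ranged from 0.72 to 0.94 for Esr1, from -1.30 to -1.10 for Esr2 and from 1.31 to 1.52 for Prlr. The smallest size for Esr2 was -0.60, on the log2(FPKM + 1) scale, which understates the change of low genes.

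Levels of different receptors were compared per length, on the deposited FPKM. In the CON group, Prlr was highest at 16.6 ± 2.76 FPKM (SD, n = 3), followed by Gper1 (3.34 ± 0.307), Nr3c1 (2.82 ± 0.319), Esr1 (2.62 ± 0.353), Nr3c2 (1.69 ± 0.575), Esr2 (1.45 ± 0.172) and Pgr (0.222 ± 0.0509). Nr3c1 and Esr1 overlapped between mice, as did Nr3c2 and Esr2, and the lowest Gper1 value (3.10) was above the highest of Nr3c1 (3.03) by less than either SD. Prlr and Pgr stood clear of their neighbours.

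In the T + E2 group, the order was Prlr (42.1 ± 5.53 FPKM), Esr1 (4.49 ± 0.271), Gper1 (3.78 ± 0.611), Nr3c1 (2.57 ± 0.378), Nr3c2 (0.708 ± 0.301), Esr2 (0.617 ± 0.0399) and Pgr (0.416 ± 0.0823). Esr1 moved from the fourth to the second place, its lowest value (4.30) just above the highest of Gper1 (4.27). Nr3c2 and Esr2 again overlapped. The places in the middle depend on the length used: the deposited length equals the sum of all distinct exons of GENCODE M21, in which overlapping exons count more than once, for all receptors but Nr3c1, and is from 1.19 times (Gper1) to 2.18 times (Nr3c1) the merged exon length. Per merged exon length, Nr3c1 took the second place in the CON group with 6.14 ± 0.695 FPKM, Esr1 (3.64 ± 0.491) was level with Nr3c2 (3.64 ± 1.24), and in the T + E2 group Esr1 kept the second place with 6.25 ± 0.377 FPKM.

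**Figure D3:**
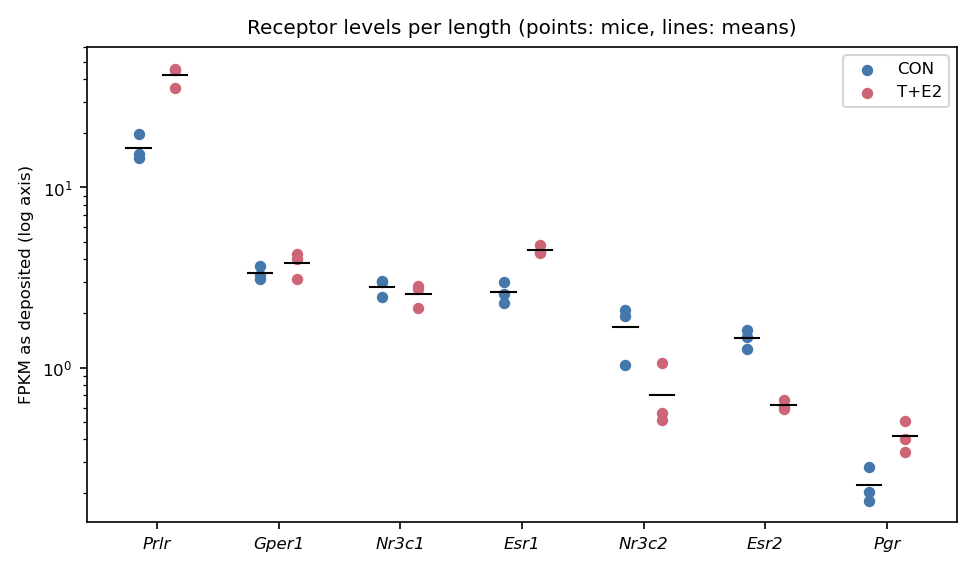
Deposited FPKM (vertical axis, logarithmic) of the 7 receptors in each mouse, CON in blue and T+E2 in red, with the group means as lines. Prlr lies above all others in both groups and Pgr has the lowest mean in both.

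The genes that act with the receptors or respond to them were described in 9 lists. Together with the lists of other nuclear receptors and of membrane steroid binders, they held 158 tested genes, of which 30 rose and 19 fell, to be read beside the 10.4% and 9.25% of all tested genes given above. The lists share some genes: Pgr, Fkbp5, Nrip1, Sgk1, Areg, Rara and Src stand in more than 1 of them or among the receptors. The count that passed was 21 without both replicates numbered 2.

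Jak2, Stat5a and Stat5b, which act directly behind Prlr, were all higher in the T + E2 group. Of the 25 tested genes of prolactin signalling, 6 rose and 1 fell, with a median log2 fold change of -0.04 against -0.0021 over all tested genes. Stat5a, which carries the signal of the receptor to the nucleus, measured 351, 299 and 357 CPM in CON 1, 2 and 3 and 980, 780 and 804 CPM in T + E2 1, 2 and 3. On the log2 scale it rose by 1.35 ± 0.13 (standard error, n = 3, edgeR adjusted p = 0.000371), with Prlr at 1.39. Its homologue Stat5b rose from 88.0 ± 2.92 to 168 ± 16.1 CPM (log2 fold change 0.94, adjusted p = 0.000588). Jak2, the kinase bound to the receptor, rose from 44.1 ± 6.09 to 81.8 ± 1.89 CPM (0.89, adjusted p = 0.00149). For these 3 genes no treated mouse overlapped with a control mouse, and each passed without both replicates numbered 2.

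Of the feedback inhibitors of the pathway, Socs2 passed the test, and Cish, Socs1, Socs3 and Socs7 did not. Socs2 measured 13.2, 15.2 and 16.7 CPM in CON 1, 2 and 3 and 22.4, 23.6 and 25.2 CPM in T + E2 1, 2 and 3, a log2 fold change of 0.66 (edgeR adjusted p = 0.00792), and missed the threshold without both replicates numbered 2 (adjusted p = 0.0697). Cish, a gene that Stat5 proteins switch on in many tissues, had overlapping values of 17.7, 13.9 and 13.2 CPM against 14.8, 11.9 and 24.4 CPM (log2 fold change 0.19, adjusted p = 0.644). Socs3 also overlapped, at 7.71 ± 0.691 and 6.98 ± 0.202 CPM. The other genes past the threshold were Jak1 (log2 fold change 0.41), the ubiquitin ligase subunit Btrc (0.34) and the adaptor Shc1 (-0.31). Elf5, an epithelial target in the mammary gland, had a log2 fold change of -1.81 that did not pass (adjusted p = 0.088). Prl itself was listed at 0 reads in all 6 mice, which at 3 counts allows up to 0.208 CPM. Without both replicates numbered 2, 3 genes of the list rose and 1 fell.

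Of 15 tested oestrogen-responsive genes, 7 rose and 0 fell by edgeR's test, with a median log2 fold change of 0.54. Downwards, 2 genes had an unadjusted p under 0.05, and DESeq2 called 8 genes up and 1 down. Greb1, an early oestrogen target and cofactor of Esr1, measured 36.4, 16.2 and 27.5 CPM in CON 1, 2 and 3 and 170, 139 and 142 CPM in T + E2 1, 2 and 3 (log2 fold change 2.49, edgeR adjusted p = 0.000625). The carbonic anhydrase gene Car12 rose from 4.45 ± 0.675 to 24.5 ± 4.42 CPM (2.46, adjusted p = 0.000111) and the growth factor gene Igf1 from 52.4 ± 11.1 to 129 ± 26.8 CPM (1.30, adjusted p = 0.00277). These 3 passed also without both replicates numbered 2, in which case they were the 3 of the list that rose. Agr2 (0.97), Pgr (0.95), Nrip1 (0.83) and Ctsd (0.65) were the others past the threshold, and all 4 missed it without both replicates numbered 2. The cell cycle gene Ccnd1 had a log2 fold change of -0.59 that missed it (adjusted p = 0.0569). Areg, Tff1 and Tff3 were below the filter.

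The mineralocorticoid list held 9 tested genes, among them Hsd11b1 and Hsd11b2, enzymes that convert glucocorticoids. Of these 9, 6 rose and 0 fell by edgeR's test (0 downwards at an unadjusted p under 0.05, 0 by DESeq2). Their median log2 fold change was 0.60, while Nr3c2 itself was lower, by a call that depended on single mice. Scnn1a, the alpha subunit of the epithelial sodium channel, measured 22.1, 34.4 and 20.3 CPM in CON 1, 2 and 3 and 67.5, 56.6 and 96.2 CPM in T + E2 1, 2 and 3 (log2 fold change 1.52, edgeR adjusted p = 0.00471). Scnn1b, the beta subunit of the channel, rose from 30.8 ± 2.68 to 60.3 ± 8.60 CPM (0.97, adjusted p = 0.00174). The ubiquitin ligase gene Nedd4l (0.90), Hsd11b1 (0.60) and the kinase gene Sgk1 (0.51) also rose. Hsd11b1 makes active glucocorticoid, and Hsd11b2, which removes it and thereby protects the mineralocorticoid receptor, was at 1.21 ± 0.0812 and 1.80 ± 0.366 CPM and did not pass (adjusted p = 0.179). In the fit without both replicates numbered 2, 4 of the list rose.

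**Figure D4:**
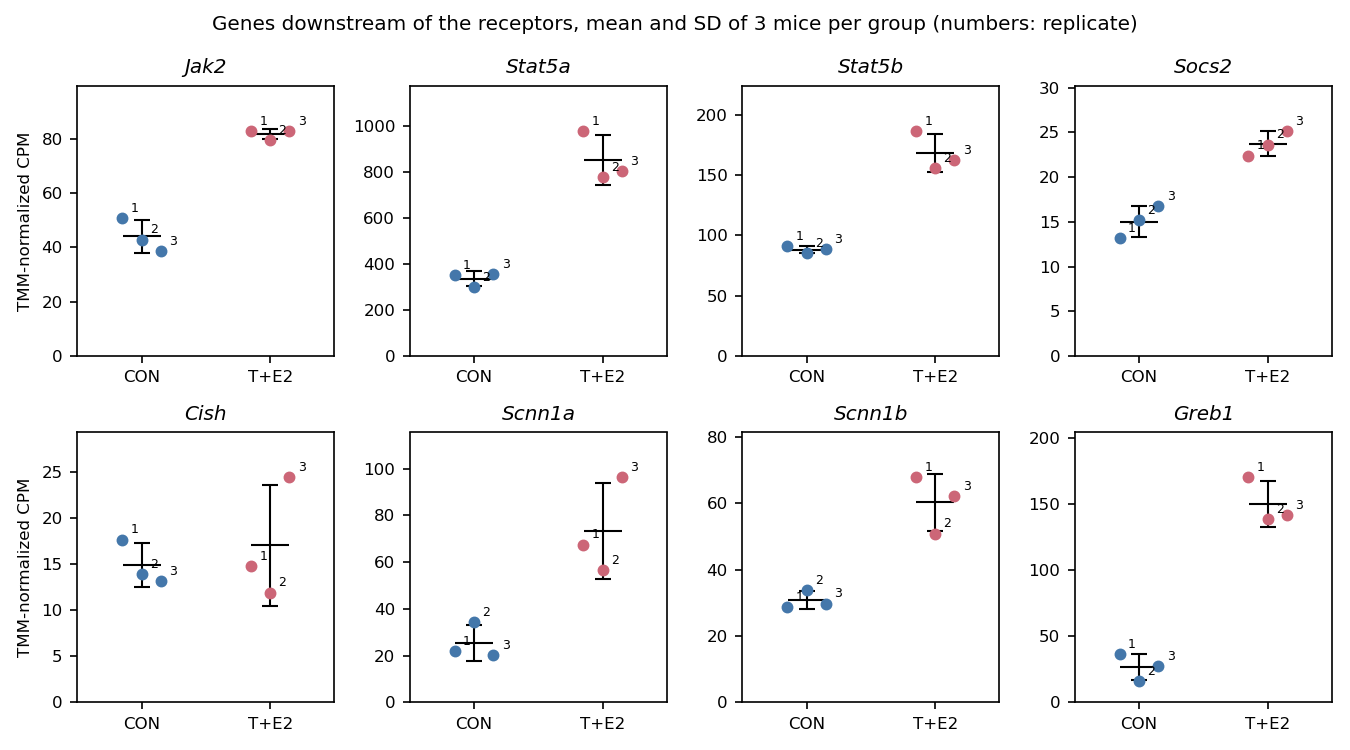
TMM-normalized CPM (vertical axis, from 0) of 8 genes that signal for or respond to the receptors, in each mouse of the CON (blue) and T+E2 (red) groups, with mean and SD (n = 3) and the replicate number beside each point. The groups separate for all but Cish, in which T+E2 3 (24.4 CPM) lies above and the other treated mice lie within or below the control range.

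Of 16 glucocorticoid-responsive genes, 5 rose and 2 fell, with a median log2 fold change of 0.22. The risers were Cebpd (0.99), Fkbp5 (0.95), Errfi1 (0.93), Tsc22d3 (0.72) and Sgk1 (0.51). The mice had been given testosterone and oestradiol, and which steroid or receptor moved the genes of this list was not tested. The metallothionein genes fell, Mt1 from 952 ± 112 to 404 ± 79.6 CPM (log2 fold change -1.24, edgeR adjusted p = 0.00158) and Mt2 from 850 ± 111 to 470 ± 99.4 CPM (-0.85, adjusted p = 0.0116). Per1, Dusp1 and Zbtb16, all induced by glucocorticoids in many tissues, overlapped between the groups. Without CON 1, CON 3, T + E2 2 or T + E2 3, 3 of the list rose, and without both replicates numbered 2, 2 rose and 1 fell. Of 5 tested progesterone-responsive genes 1 passed, Hand2, a transcription factor of the uterine stroma, which fell from 12.2 ± 3.13 to 5.17 ± 2.34 CPM (log2 fold change -1.23, edgeR adjusted p = 0.0352) and missed the threshold when any mouse other than T + E2 2 was left out.

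Among 13 tested genes of G-protein signalling downstream of Gper1, Egfr rose (log2 fold change 0.43, edgeR adjusted p = 0.0288) and the adenylate cyclase genes Adcy3 (-0.77, adjusted p = 0.0245) and Adcy5 (-0.35, adjusted p = 0.0475) fell. Egfr missed the threshold without CON 2, CON 3, T + E2 2 or T + E2 3, Adcy3 without any mouse other than CON 1 and Adcy5 without any mouse other than T + E2 3. Without both replicates numbered 2, 0 of these genes passed edgeR's test and 2 had an unadjusted p under 0.05.

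Of 14 chaperones of the steroid receptors, 2 rose and 2 fell. Fkbp5, a co-chaperone that lowers the hormone affinity of the glucocorticoid receptor, measured 389, 465 and 345 CPM in CON 1, 2 and 3 and 749, 734 and 839 CPM in T + E2 1, 2 and 3 (log2 fold change 0.95, edgeR adjusted p = 0.00206), and passed also without both replicates numbered 2. Hspa4 rose by 0.65 on the log2 scale, and Hsp90ab1 (-0.46), the abundant chaperone itself, and its partner Ptges3 (-0.47) fell with adjusted p of 0.0426 and 0.0461. Hsp90ab1 missed the threshold without any mouse other than CON 1, and Ptges3 without CON 2, CON 3, T + E2 1 or T + E2 2.

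Of the 15 coactivators and pioneer factors, 0 passed edgeR's test, 4 had an unadjusted p under 0.05, and DESeq2 called 1 up and 1 down. The largest differences were those of Ppargc1a (log2 fold change 0.73, adjusted p = 0.0566) and Foxa1 (-0.41, adjusted p = 0.0648). Of 12 corepressors, 2 rose and 2 fell. Nrip1, which is itself induced by oestrogen, rose from 111 ± 25.8 to 198 ± 15.6 CPM (log2 fold change 0.83, edgeR adjusted p = 0.0121), Tbl1xr1 rose by 0.51 on the log2 scale, and Phb2 (-0.46) and Gps2 (-0.31) fell. Tbl1xr1 missed the threshold without any mouse other than CON 1, and Gps2 without any mouse other than T + E2 3. Without both replicates numbered 2, 0 of the 12 passed edgeR's test and 3 had an unadjusted p under 0.05.

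**Figure D5:**
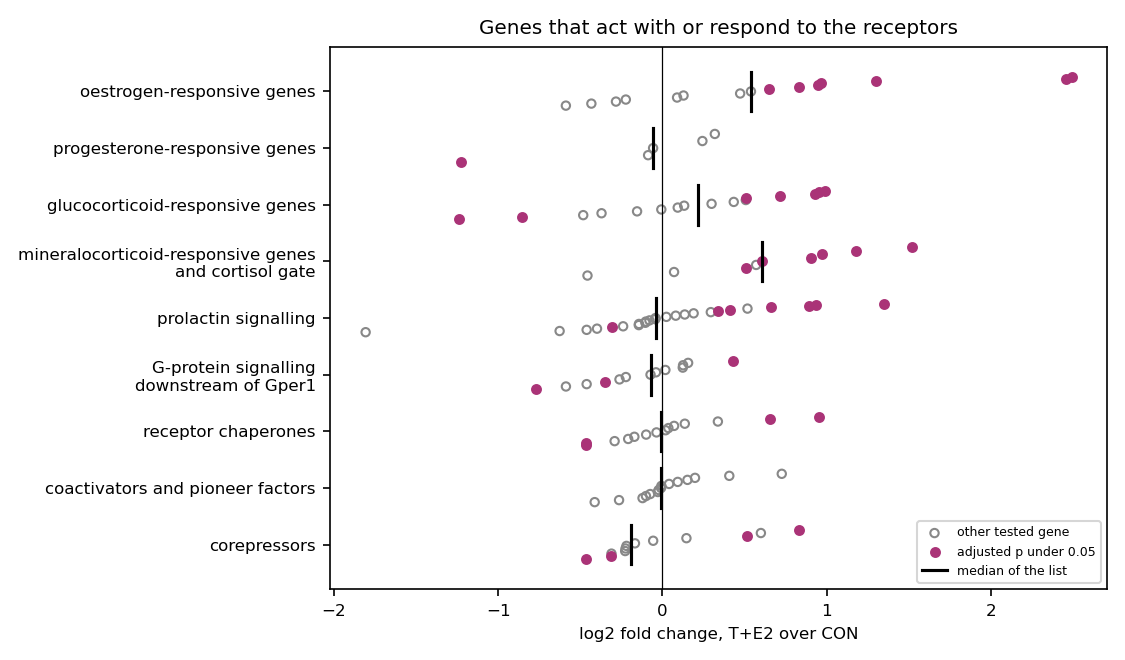
Log2 fold change, T+E2 over CON (horizontal axis), of every tested gene in 9 lists, 1 list per row with the points raised in order of value for legibility, filled where the adjusted p was under 0.05, and the median as a vertical line. The medians of the oestrogen-responsive (0.54) and mineralocorticoid (0.60) lists lie right of 0, and that of prolactin signalling lies at -0.04 with Stat5a at its right end.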

How the data were processed

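RNA of whole prostate tissue was sequenced from 3 CON and 3 T + E2 mice. The authors deposited 1 table of 34745 genes with the raw read count of every gene in each mouse, as whole numbers. FPKM, also deposited, were derived by the authors from those counts, a gene length and the library total. The submitters' processing notes name TopHat, Bowtie2 and HTSeq without roles, and the setting for strand is not given in the sources used here. Coordinates are those of the table, on GRCm38; 34344 of its identifiers occur in GENCODE M21, which gave exons and coding sequences. 1 column of counts and 1 of FPKM belong to each mouse, and 0 columns belong to other samples. The replicate number of each mouse is that of its label.

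Counts were tested with edgeR 4.0.16 (R 4.3.3; filterByExpr with a minimum count of 10 and a total of 15, TMM, glmQLFit and glmQLFTest), all 6 mice in 1 fit, and p-values were adjusted by the Benjamini-Hochberg method over 15580 genes. A gene is said to have risen or fallen, or to have passed, at an adjusted p under 0.05. Every adjusted p is from this fit or, where mice were left out or another setting is named, from edgeR refitted in that way. Where named, it is from limma 3.58.1 or DESeq2 1.42.0, the tool of the study. Standard errors and 95% intervals come from the fit of all 6 mice. The edgeR fit was tested on data simulated with the same spread between mice for every gene. Only genes with higher mean counts than Pgr and Esr2 were changed there, and no single mouse carried other tissue. The simulation therefore does not cover low counts or the seminal vesicle transcripts of the replicates numbered 2. The Esr1 to Esr2 ratio was compared by an exact permutation test. Coding sequences were compared with BLAST+ 2.17.0, and upstream windows were those of RefSeq.

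The receptors and all lists were chosen with earlier results of these data known. Named genes are the 7 receptors, from each list up to 4 with the largest absolute log2 fold change among those that passed, and for each receptor the 2 protein-coding genes with the highest Pearson correlation over the mice. Others named, such as Cish, Socs3, Prl, Hsd11b2 and list members further down the order, were added after their values were seen. Some genes that the rule selects are not reported here. Ca12 of the oestrogen list is Car12 in the table, matched by its RefSeq synonym. Alternatives were other size factors, filters, tools and scales, protein-coding genes alone, the replicate number as a block, each mouse left out, and, chosen after seeing the data, both replicates numbered 2 left out and merged exon lengths. Floors of 3 counts cover counting error only.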

Additional observations from a re-analysis of the deposited data

How the results depend on the processing

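Esr1, Esr2 and Prlr kept their direction and an adjusted p under 0.05 in all 16 alternatives. In the alternative that required FPKM of at least 1, Esr2 was kept through the CON mice alone. The number of receptors that passed, 5, was 3 under limma on log2(FPKM + 0.1) and on log2(FPKM + 1), with the replicate number as a block and without both replicates numbered 2, and 3 to 4 with 1 mouse left out. Pgr missed the threshold on log2(FPKM + 0.1) (log2 fold change 0.68, limma adjusted p = 0.0911), on log2(FPKM + 1) (0.21, 0.0833), under the block (0.95, edgeR 0.081) and without both replicates numbered 2 (0.66, 0.233); with 1 mouse left out it was 0.79 to 1.14, and it was not tested where FPKM of at least 1 was required. Nr3c2 missed it under the same settings (-1.15, -0.65, -1.23 and -0.93, adjusted p 0.0626, 0.0617, 0.0893 and 0.217) and was -1.60 to -1.03 with 1 mouse left out. Nr3c1 turned to 0.026 without T + E2 2 (-0.20 to 0.026 over single mice) and to 0.055 without both replicates numbered 2. Why these calls were lost was not tested, and every fit that left out mice also had fewer of them.

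Of the list genes, 49 passed, 29 to 45 with 1 mouse left out, 35 under the block and 21 without both replicates numbered 2. Over all tested genes 3061 passed, 1929 to 2741 with 1 mouse left out, 2174 under the block and 1354 without both replicates numbered 2. Per merged exon length, the places in the CON group were 2 for Nr3c1, 3 for Gper1, 4 for Nr3c2 and 5 for Esr1 (a tie, both at 3.64 FPKM), and in the T + E2 group 3 for Nr3c1 and 4 for Gper1. The shift of the Esr1 to Esr2 log2 ratio was 1.87 to 2.03 under the other scales and without both replicates numbered 2, and 1.93 to 2.09 with 1 mouse left out. Of 765 values of the 48 named genes other than the receptors, 667 kept direction and call, 95 lost the call and 3 turned: Zfp53 was at 0.015 without T + E2 2 (-0.051 to 0.015 over single mice) and at 0.023 without both replicates numbered 2, and Otud5 at 0.0011 without both.

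The numbers 1 to 3 name different mice in each group. Between mice of the same number, the correlations of the deviations from the group means were -0.0516, 0.0275 and 0.0463. No CON mouse correlated best with the T + E2 mouse of its own number. CON 1 did so with T + E2 2 (0.132), CON 2 with T + E2 3 (0.0420) and CON 3 with T + E2 1 (0.137). Of the T + E2 mice, only T + E2 3 correlated best with its own number (0.0463). With 3 mice per group these values cannot decide whether mice of the same number share an effect, and both replicates numbered 2 held seminal vesicle transcripts. Low counts limit Pgr, at 34 to 105 reads in a mouse, and Esr2, at 47 to 137 reads.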

Other observations

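Among the other nuclear receptors, 32 genes were tested, of which 3 rose and 7 fell by edgeR's test, with a median log2 fold change of -0.09. Vdr, the vitamin D receptor, measured 11.7, 9.0 and 10.8 CPM in CON 1, 2 and 3 and 31.8, 42.4 and 50.1 CPM in T + E2 1, 2 and 3 (log2 fold change 1.98, edgeR adjusted p = 0.000322), a larger difference than that of any of the 7 receptors. It passed also without both replicates numbered 2 (1.87, adjusted p = 0.00865). The oxysterol receptor gene Nr1h3 (0.59) and the thyroid hormone receptor gene Thrb (0.56) also rose, whereas Thra was among those that fell. Rxrg, a partner of many nuclear receptors, fell from 13.8 ± 1.56 to 5.44 ± 1.21 CPM (-1.33, adjusted p = 0.00275). The immediate early receptors Nr4a1 (-1.14) and Nr4a2 (-1.13) and the clock gene Nr1d1 (-0.998) fell as well. Without T + E2 2 the list had 4 genes that fell, and without both replicates numbered 2 it had 1 that rose and 3 that fell.

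Of 7 tested membrane binders of progestins and related ligands, Pgrmc1 rose from 174 ± 3.32 to 254 ± 11.9 CPM (log2 fold change 0.55, edgeR adjusted p = 0.00318). The membrane progestin receptor genes Paqr6 (-1.40, adjusted p = 0.00428) and Paqr5 (-1.21, adjusted p = 0.0268) fell, at levels of 4.91 ± 0.904 and 7.04 ± 1.99 CPM in the CON group. Paqr5 missed the threshold without any mouse other than CON 2, and Paqr6 without both replicates numbered 2 (adjusted p = 0.0517).

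The genes whose log2 CPM over the 6 mice was most like that of a receptor, among 14230 other protein-coding genes, were Arfgap1 and Nrn1l for Esr1 (Pearson r of 0.999 and 0.995), Mrps6 and Atf4 for Esr2 (both 0.999), E330009J07Rik for Pgr (0.996), and Itih2 and Lancl1 for Prlr (both 0.998). Those most like Nr3c1 were Zfp53 and Otud5 (0.991 and 0.986), like Nr3c2 Rab35 and Fmnl1 (0.995 and 0.990), and like Gper1 Lsm8 and Trim29 (0.977 and 0.974). These genes were picked as the highest among 14230 over 6 mice, and a group difference adds to r where both genes have one. The values are therefore descriptions.

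Of the 4 nerve markers, 2 fell by edgeR's test, among them Sox10 (log2 fold change -1.66), and 1 rose, Chga (1.41), with a median of -0.77. Of the basal markers Trp63 rose (0.57) and of the endothelial markers Vwf (0.65). Without both replicates numbered 2, 0 basal and 0 endothelial markers passed edgeR's test, and of the nerve markers 1 rose and 1 fell. Of the 6 immune markers 0 passed (0 at an unadjusted p under 0.05, 0 by DESeq2), and their summed level was 55.3 to 143 CPM in the CON group and 109 to 203 CPM in the T + E2 group. Of the 4 skeletal muscle markers 0 passed by edgeR's test (0 at an unadjusted p under 0.05, 0 by DESeq2), with a sum of 265 CPM in CON 2 against 66.7 to 190 CPM in the rest.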
